A study of Mus musculus with 5 samples.

Results

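Endoglin and 9 other genes of TGF-beta and BMP signaling were followed in microvessels isolated from the brains of 3 WT mice and 2 diabetic mice that carried Ins2-AKITA, called mutants here. The set was given by gene symbol and held Tgfb1, Eng, Acvrl1, Bmpr2, Tgfbr1, Tgfbr2, Smad6, Smad7, Id1 and Id3. All 10 were found once each among the 34615 gene symbols of the files, and all 10 had a mean FPKM of at least 1. FPKM counts fragments per kilobase of exon and per unit of mapped reads, so levels can be compared between genes.

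All mice were males on the C57BL6 background, between 26 and 38 weeks old, and each library came from 1 mouse. Ins2-AKITA mice are heterozygous for a mutant insulin 2 gene and become hyperglycemic through a lack of insulin, and the WT mice were littermates without the mutation. Fragments were pulled from collagenase-treated brain with magnetic beads against PECAM1, an endothelial surface protein. Endothelial cells, pericytes and the end-feet of astrocytes come along in such fragments. With only 2 mutants, an exact permutation test over the mice cannot give a p below 0.1.

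TGF-beta and BMP ligands bind pairs of type I and type II receptor kinases on the cell surface. In endothelium, endoglin is a co-receptor that presents the circulating ligands BMP9 and BMP10 to the type I receptor ALK1, the product of Acvrl1, together with the type II receptor BMPR2. The activated receptors phosphorylate SMAD proteins, which enter the nucleus and switch on targets such as Id1 and Id3, while SMAD6 and SMAD7 are induced inhibitors that close the loop. Loss of 1 copy of ENG or ACVRL1 in humans causes hereditary hemorrhagic telangiectasia, in which fragile vessels and arteriovenous shunts form, also in the brain.

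The mutant values of Eng lay below, and those of Smad6 above, all WT values, so the 250 bases before their annotated starts are shown, 5′ to 3′ on the strand of the gene, as RefSeq gives them for GRCm38.p6. Capitals mark CAGAC and its reverse complement GTCTG, the short element that SMAD proteins bind, and would mark GGCGCC, a GC-rich element of BMP targets that reads the same on both strands. The windows were chr2:32646345-32646594 on the plus strand for Eng and chr9:64022060-64022309 on the minus strand for Smad6.
Eng: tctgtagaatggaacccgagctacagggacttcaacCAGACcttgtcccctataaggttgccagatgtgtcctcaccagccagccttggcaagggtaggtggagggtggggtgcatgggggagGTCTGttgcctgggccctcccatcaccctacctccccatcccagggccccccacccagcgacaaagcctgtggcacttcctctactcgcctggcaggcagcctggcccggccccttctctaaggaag
Smad6: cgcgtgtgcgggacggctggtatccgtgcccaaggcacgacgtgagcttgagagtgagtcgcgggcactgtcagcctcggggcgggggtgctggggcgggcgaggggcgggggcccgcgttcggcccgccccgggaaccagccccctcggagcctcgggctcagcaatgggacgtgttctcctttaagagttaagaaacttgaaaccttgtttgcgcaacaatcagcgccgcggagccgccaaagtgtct
The Eng window held CAGAC or its reverse complement at 2 places and the Smad6 window at 0, and GGCGCC was in neither. CAGAC was present in 42.2% of the 32851 windows of this length in the table and GGCGCC in 9.59%. The table held 7 of the 10 members, in 8 windows, and had no entry for Acvrl1, Id1 or Smad7. Among the others, the windows of Tgfbr2 and Id3 held CAGAC at 1 and 2 places and that of the second Tgfbr1 start at 1 place, those of Bmpr2 and the first Tgfbr1 start held GGCGCC at 1 place, and that of Tgfb1 held neither. The Id3 start used here lies inside a transcript of GENCODE vM1, so its window may hold transcribed bases. A match of letters is a description and no measure of binding.

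Eng (ENSMUSG00000026814, NCBIM37 chromosome 2, 32502115 to 32538189, plus strand) had the largest difference of the 10 genes on FPKM as deposited. It did not when libraries were scaled to a set of endothelial markers (-0.28). There Smad6 (0.60), Bmpr2 (0.54), Tgfbr1 (0.43), Acvrl1 (0.32), Id3 (0.31) and Smad7 (0.31) were further from 0. With TPM all other members but Tgfb1 (0.75) were further from 0 than Eng (0.81). Without Ins2-AKITA replicate 1, Id1 (-0.93) was further from 0 than Eng (-0.84). In the WT animals (replicates 1 to 3, in this order throughout) Eng stood at 30.6, 41.5 and 32.7 FPKM, against 22.2 and 19.0 in the mutants (replicates 1 and 2). Both mutant mice were thus below every WT mouse. The means were 34.9 ± 5.76 (SD, n = 3) in WT and 20.6 ± 2.32 (SD, n = 2) in Ins2-AKITA mice, 1.70-fold higher in WT. On the log2(FPKM + 1) scale the difference was -0.73 (standard error 0.22, 95% interval -1.26 to -0.20), and with TPM it turned to 0.81 while the median of all genes moved to 1.07. On FPKM as deposited its two-sided p was 0.015 in limma before adjustment and 0.90 after adjustment over all tested genes, and the exact two-sided permutation p was 0.1, the smallest possible. Eng ranked 199 of 16286 genes by limma p, and so did not pass the threshold of 0.05 after adjustment.

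The Eng values rest on an estimated 90 to 339 fragments per library, which gives a counting error of 5.43% to 10.6%. These fragment numbers were worked out from the steps between low FPKM values and are upper estimates for genes with several transcripts, such as Eng with 7. Counting error alone is included. Eng exons share 124 bases with exons of Ak1 on the same strand, and 61 bases of Eng exon lie opposite Fpgs. Ak1, an adenylate kinase gene, had 42.0, 45.7 and 54.7 FPKM in the WT animals against 49.4 and 57.1 in the mutants, so its values were not lower in the mutants.

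**Figure D1:**
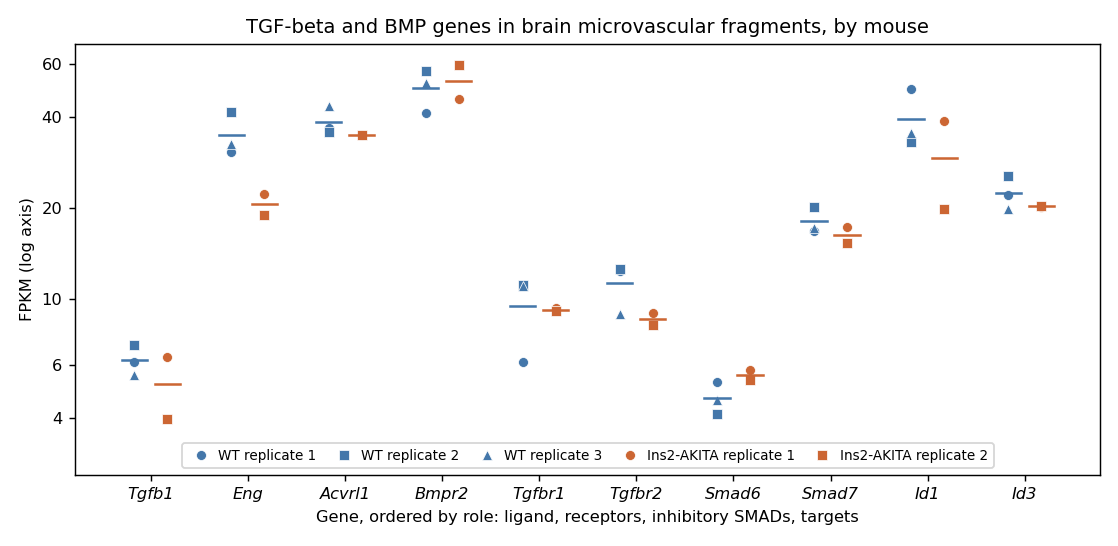
FPKM of the 10 genes on a log axis, with 1 point per mouse (blue, WT; orange, Ins2-AKITA; the shape gives the replicate number) and a line at each group mean. Both Ins2-AKITA points for Eng, at 22.2 and 19.0, lie below the WT points at 30.6 to 41.5, while for most other genes the points of the genotypes interleave.

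Markers of endothelium tended to be lower in the mutants as well, though their sums overlapped between genotypes. Of 10 endothelial marker genes, 9 had a lower log2 value in Ins2-AKITA mice, beside 8718 of all 16286 tested genes. None of the 10 passed the threshold in limma. Their summed FPKM was 426 to 746 in WT and 356 to 441 in Ins2-AKITA mice, and their median log2 difference was -0.44. Pecam1, the gene of the protein used to capture the fragments, had 92.8, 91.0 and 65.8 FPKM in the WT animals against 63.1 and 58.3 in the mutants. Cdh5, the cadherin of endothelial junctions, had 32.3, 44.5 and 30.9 FPKM in the WT animals against 25.0 and 21.9 in the mutants, and Ly6c1, a surface protein of brain endothelium, was at 56.7 or more in WT and at 37.5 or less in the mutants. These 3 of the 10 endothelial markers had no overlap between genotypes, where 10.3% of all tested genes had both mutants below all WT mice. In bulk RNA a smaller number of endothelial cells and less RNA per endothelial cell cannot be told apart.

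When every library was scaled to the same geometric mean of the 10 endothelial markers, the Eng difference was -0.28 (standard error 0.38, adjusted p = 0.77 in limma), against -0.73 without this scaling. The geometric mean itself was 39.9, 58.2 and 35.7 FPKM in the WT animals against 35.3 and 28.3 in the mutants. Scaling of this kind divides all genes of a library by 1 factor, and it raised the median log2 difference of all genes from -0.03 to 0.37. Eng was 0.65 below that median, against 0.69 without scaling. Such scaling shifts all genes nearly alike, so this distance could hardly change and tests nothing about endothelial content. The ratio of Eng to Pecam1 within a library was 0.330, 0.456 and 0.497 in the WT animals against 0.352 and 0.325 in the mutants, with overlap. For Eng to Cdh5 it was 0.946, 0.931 and 1.06 in the WT animals against 0.890 and 0.866 in the mutants, a small difference without overlap (exact permutation p = 0.2, 0.53 after Benjamini-Hochberg adjustment over 8 ratios). The ratios were chosen after the values had been seen.

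Other cell types were present in every library. Smooth muscle markers were lower in Ins2-AKITA mice for 5 of 5 genes, with a sum of 321 to 374 FPKM in WT and 213 to 262 in Ins2-AKITA mice. Astrocyte markers were higher for 6 of 6, with sums of 1490 to 2200 and 2610 to 2990. Blood markers were lower for 5 of 5, with sums of 35.1 to 67.7 and 25.1 to 32.4. Of all 16286 tested genes, 8718 were lower and 7568 higher. The sums overlapped for pericyte markers (204 to 252 in WT, 180 to 228 in Ins2-AKITA mice), microglia and macrophage markers (49.1 to 98.1 and 83.2 to 91.8), fibroblast markers (28.7 to 33.0 and 31.3 to 36.2), oligodendrocyte markers (1880 to 2550 and 2030 to 2220) and neuron markers (639 to 728 and 636 to 755). No gene of these lists passed the adjusted threshold. How far the mix of cells shaped the values of the 10 genes was not tested. Scaling to endothelial markers cannot test it, since it shifts all genes of a library nearly alike.

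Of the 10 members, 0 passed an adjusted p of 0.05 in limma, where 4 of all 16286 tested genes did, a share of 0.0246%. At an unadjusted p under 0.05 only Eng was counted, 1 of 10 lower and 0 of 10 higher, beside 2.93% of all tested genes lower and 1.53% higher. Both mutant mice lay below all WT mice for 2 members, Eng and Acvrl1, beside 10.3% of all tested genes. Both lay above all WT mice for Smad6 alone, beside 9.24% of all tested genes. The count below WT depended on single mice: it was 4 of 10 without WT replicate 3, beside 23.5% of all tested genes, and 6 of 10 without Ins2-AKITA replicate 1, beside 27.9%. Without Ins2-AKITA replicate 1 the count above WT was 2 of 10, beside 26.1%. The median log2 difference of the members was -0.13, with 7 lower and 3 higher, against -0.03 over all tested genes. It turned to 0.31 with scaling to endothelial markers and to 1.08 with TPM, which shifts the median of all genes to 1.07.

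**Figure D2:**
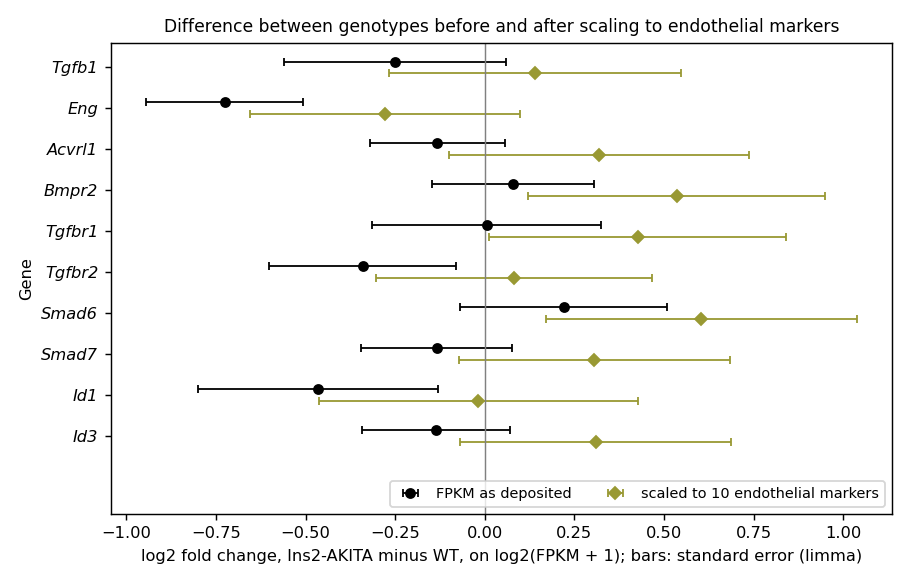
Log2 difference between Ins2-AKITA and WT mice for the 10 genes, with the limma standard error as bars, from FPKM as deposited (black circles) and after scaling to the endothelial markers (olive diamonds). Eng lies at -0.73 before and -0.28 after scaling, and every gene shifts to the right.

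Among the ligands, Tgfb1 (chromosome 7, 26472021 to 26490096, plus strand), which encodes TGF-beta 1, was one of the lowest members. It had 6.15, 6.99 and 5.58 FPKM in the WT animals against 6.38 and 3.99 in the mutants. Mutant replicate 1 was inside the range of the WT animals and replicate 2 below it, so the difference of -0.25 (standard error 0.31) was smaller than the spread between mutant mice. Only 12 to 37 fragments per library were estimated for this gene, a counting error of 16.4% to 28.8%. Without Ins2-AKITA replicate 2 the difference was 0.03. Gdf2 and Bmp10, the genes of BMP9 and BMP10, were listed at 0 in all 5 libraries, where 3 fragments would have given 0.382 to 0.957 FPKM for Gdf2 and 0.964 to 2.42 for Bmp10. Both ligands are known to be made mainly in liver and heart and to reach vessels through the blood. Tgfb2 was the most abundant of the other ligands, with 12.9, 17.4 and 14.7 FPKM in the WT animals against 19.6 and 16.8 in the mutants.

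Acvrl1 (chromosome 15, 100958953 to 100975767, plus strand) encodes the type I receptor ALK1, the partner of endoglin. It was at 36.7, 35.6 and 43.7 FPKM in the WT animals and at 35.0 in each mutant. The mutant values lay just under the lowest WT value, closer to it than the counting error of 4.47% to 7.89%. The difference was -0.13 (standard error 0.19, 95% interval -0.59 to 0.32, adjusted p = 0.92 in limma), and it became 0.32 with scaling to endothelial markers and 1.38 with TPM. The ratio of Eng to Acvrl1 was 0.834, 1.17 and 0.749 in the WT animals against 0.635 and 0.542 in the mutants. Both mutant ratios were thus below all WT ratios, with means of 0.588 ± 0.0656 (SD, n = 2) and 0.916 ± 0.220 (SD, n = 3), though the exact two-sided permutation p was 0.2 and 0.53 after adjustment over the 8 ratios. A ratio within a library does not depend on how the library is scaled.

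Bmpr2 (chromosome 1, 59821481 to 59927703, plus strand), the type II receptor of the BMP branch, had the highest mean FPKM of the members, though in WT replicate 1 Id1 was above it. It had 41.2, 56.8 and 52.0 FPKM in the WT animals against 45.9 and 59.7 in the mutants. The genotypes interleaved, and the difference was 0.08 (standard error 0.23). Its sign turned when WT replicate 1 (-0.05) or Ins2-AKITA replicate 2 (-0.11) was left out. The ratio of Bmpr2 to Acvrl1 was 1.12, 1.60 and 1.19 in the WT animals against 1.31 and 1.71 in the mutants, with overlap. Acvrl1 to Pecam1 was 0.396, 0.391 and 0.664 in the WT animals against 0.555 and 0.601 in the mutants, also with overlap.

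Tgfbr1 and Tgfbr2, receptors of the TGF-beta branch, had lower FPKM than Acvrl1 and Bmpr2 in every library. Tgfbr1 (chromosome 4, 47366094 to 47427803, plus strand), the type I receptor ALK5, had 6.15, 11.1 and 11.0 FPKM in the WT animals against 9.28 and 9.07 in the mutants. WT replicate 1 was the lowest of all, and without it the difference moved from 0.01 (standard error 0.32) to -0.25 (standard error 0.23), and its sign also turned without Ins2-AKITA replicate 1 (-0.0094). Tgfbr2 (chromosome 9, 115993415 to 116084383, minus strand), the type II receptor that binds TGF-beta 1 directly, had 12.3, 12.5 and 8.86 FPKM in the WT animals against 8.96 and 8.15 in the mutants. Its difference of -0.34 (standard error 0.26) was the largest among the members after those of Eng and Id1, and WT replicate 3 lay between the mutant mice. The ratio of Tgfbr2 to Tgfbr1 ranged from 0.804 to 1.99 in WT and was 0.966 and 0.898 in Ins2-AKITA mice.

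**Figure D3:**
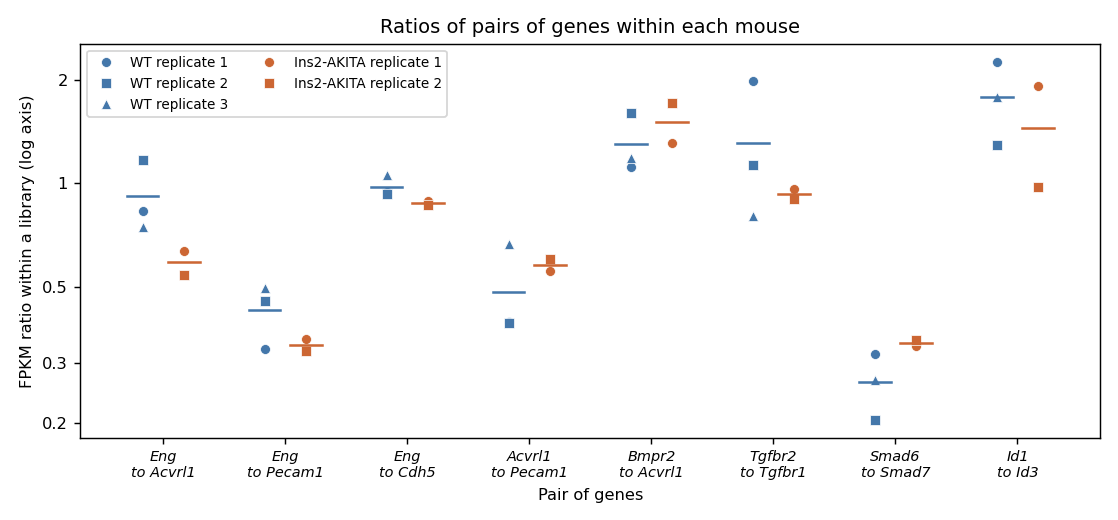
Ratio of the FPKM of 2 genes within each library on a log axis, with 1 point per mouse (blue, WT; orange, Ins2-AKITA) and a line at each group mean. The Eng to Acvrl1 ratio is 0.635 and 0.542 in the Ins2-AKITA mice and 0.749 or more in WT mice, while the ratios of Eng to Pecam1 overlap.

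The inhibitory SMAD genes are themselves induced by the pathway and dampen it. Smad6 (chromosome 9, 63800953 to 63869866, minus strand), which acts mainly on the BMP branch, had 5.30, 4.14 and 4.60 FPKM in the WT animals against 5.81 and 5.38 in the mutants. Both mutant values were above all WT values, but Ins2-AKITA replicate 2 exceeded WT replicate 1 by far less than the counting error of 16.2% to 25.0% on 16 to 38 fragments. The difference was 0.22 (standard error 0.29, adjusted p = 0.92 in limma, exact permutation p = 0.2). Smad7, which acts on both branches, had 16.7, 20.2 and 17.2 FPKM in the WT animals against 17.3 and 15.3 in the mutants, with a difference of -0.13 (standard error 0.21). The ratio of Smad6 to Smad7 was 0.318, 0.205 and 0.267 in the WT animals against 0.336 and 0.351 in the mutants, without overlap and with an exact permutation p of 0.2.

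Id1 and Id3 encode inhibitors of helix-loop-helix transcription factors and are early targets of BMP signaling. Id1 (chromosome 2, 152561987 to 152563146, plus strand) had 49.7, 33.1 and 35.4 FPKM in the WT animals against 38.8 and 19.8 in the mutants. The lower value came from Ins2-AKITA replicate 2 alone, and replicate 1 was above WT replicates 2 and 3. Its difference was -0.47 (standard error 0.34, adjusted p = 0.90 in limma), and it was -0.93 without Ins2-AKITA replicate 1 and 0.0013 without Ins2-AKITA replicate 2, so 1 mutant mouse decided it. Id3 (chromosome 4, 135699412 to 135701670, plus strand) had 22.0, 25.6 and 19.8 FPKM in the WT animals against 20.2 and 20.3 in the mutants, a difference of -0.14 (standard error 0.21), and the mutant values lay inside the WT range. The ratio of Id1 to Id3 was 2.26, 1.29 and 1.79 in the WT animals against 1.92 and 0.979 in the mutants.

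The order of levels over the 5 libraries ran from Bmpr2 (mean FPKM 51.1) through Acvrl1 (37.2), Id1 (35.4), Eng (29.2), Id3 (21.6), Smad7 (17.4), Tgfbr2 (10.2), Tgfbr1 (9.33) and Tgfb1 (5.82) to Smad6 (5.05). Bmpr2 was above Acvrl1, Id3 above Smad7, and Smad7 above Tgfbr2 in 5 of 5 libraries. Acvrl1 was above Id1 in 3 of 5, and Tgfbr2 above Tgfbr1 in 2 of 5, so these neighbours could not be ordered. The other neighbours kept their order in 4 of 5 libraries. Across the 5 libraries the profile of Eng was matched most closely by Abcc4, Rhbdd3 and Creld1 among 11262 genes with a mean FPKM of at least 5, with root mean square distances of 0.0599, 0.0699 and 0.0878 on the centred log2(FPKM + 1) scale. Abcc4 had 14.8, 18.8 and 14.4 FPKM in the WT animals against 10.6 and 9.04 in the mutants. Rhbdd3 was at 5.81, 8.33 and 6.22 in WT and at 4.34 and 2.95 in the mutants, and Creld1 was at 21.5, 27.8 and 21.8 in WT and at 17.6 and 13.3 in the mutants. The closeness is a description over 5 points that share their libraries.

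The wider pathway was followed with a list of 53 other genes, and 46 of them were abundant enough to be tested. None passed the adjusted threshold in limma (smallest adjusted p = 0.90). Their median log2 difference was -0.14, with 28 lower and 18 higher on FPKM as deposited. These directions, and those of the groups within the list, are tied to that scale, since TPM moves the median of all genes to 1.07 and endothelial scaling moves it to 0.37. At an unadjusted p under 0.05 there were 2 lower genes, Tgfbr3 and Acvr1c, and 1 higher gene, Id4, beside 2.93% of all tested genes lower and 1.53% higher. These 3 calls became 0 without Ins2-AKITA replicate 2, 1 without WT replicate 1, 1 without WT replicate 2, and 6 with the replicate number as a block. Both mutant mice lay below all WT mice for 8 of the 46 (17.4%, beside 10.3% of all tested genes) and above all WT mice for 3 (6.52%, beside 9.24%).

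Tgfbr3 encodes betaglycan, a co-receptor related to endoglin that presents TGF-beta 2 to TGFBR2. It had 43.8, 32.3 and 23.9 FPKM in the WT animals against 20.3 and 19.0 in the mutants, a difference of -0.69 (standard error 0.28, limma p = 0.048 before and 0.90 after adjustment, exact permutation p = 0.2). Acvr1c, the type I receptor ALK7, had 10.7, 6.17 and 5.67 FPKM in the WT animals against 2.92 and 2.17 in the mutants, a difference of -1.23 (standard error 0.37, limma p = 0.015 before and 0.90 after adjustment, exact permutation p = 0.1). Both co-receptor genes, Eng and Tgfbr3, thus had their lower values in the mutant mice. Bmpr1a, the type I receptor with the highest level in this list, had 25.3, 22.6 and 36.0 FPKM in the WT animals against 28.2 and 55.6 in the mutants, with Ins2-AKITA replicate 2 standing above the rest.

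Of the receptor-activated and common SMADs, 5 of 6 had a difference above 0, beside 7568 of all 16286 tested genes. The median difference of the 6 was only 0.03, and none of them stood clear of WT. Smad3, which carries TGF-beta signals and was the most abundant, had 46.9, 43.3 and 27.3 FPKM in the WT animals against 49.3 and 33.3 in the mutants. The nuclear repressor Ski was the most abundant of the intracellular regulators and varied little, with 88.6, 87.9 and 93.0 FPKM in the WT animals against 92.9 and 99.8 in the mutants. Bambi, a decoy receptor, had a mean FPKM of 0.760 and was not tested.

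Extracellular regulators were lower for 9 of 10 tested genes, with a median of -0.34, beside 8718 lower of all 16286 tested genes. The endothelial and smooth muscle markers had medians of -0.44 and -0.61 in the same mice, and their part in this was not tested. The summed FPKM of the extracellular regulators was 100 to 131 in WT and 78.5 to 98.9 in Ins2-AKITA mice. Bmper, a BMP-binding protein secreted by endothelium, had 2.88, 3.40 and 3.44 FPKM in the WT animals against 2.49 and 0.654 in the mutants. Thbs1, which can activate latent TGF-beta, had 3.89, 2.83 and 2.00 in the WT animals against 1.10 and 1.59 in the mutants, and Ltbp1, which holds TGF-beta in the matrix, had 7.76, 9.71 and 10.8 in the WT animals against 7.28 and 7.31 in the mutants. Nog, the BMP antagonist noggin, was the gene of this group with both mutant values above WT, at 2.52, 2.68 and 1.86 FPKM in the WT animals against 3.14 and 4.13 in the mutants. Ltbp4, the most abundant, varied from 18.8 to 54.4 within WT and was 40.6 and 22.5 in Ins2-AKITA mice. No gene of this group had an unadjusted p under 0.05 in limma. Among the ligands, Bmp6 (7.77, 8.59 and 7.74 FPKM in WT, 7.61 and 6.44 in Ins2-AKITA mice) and Inhbb (3.40, 4.14 and 4.09 in WT, 3.30 and 2.89 in Ins2-AKITA mice) also lay below WT in both mutant mice, by small margins.

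**Figure D4:**
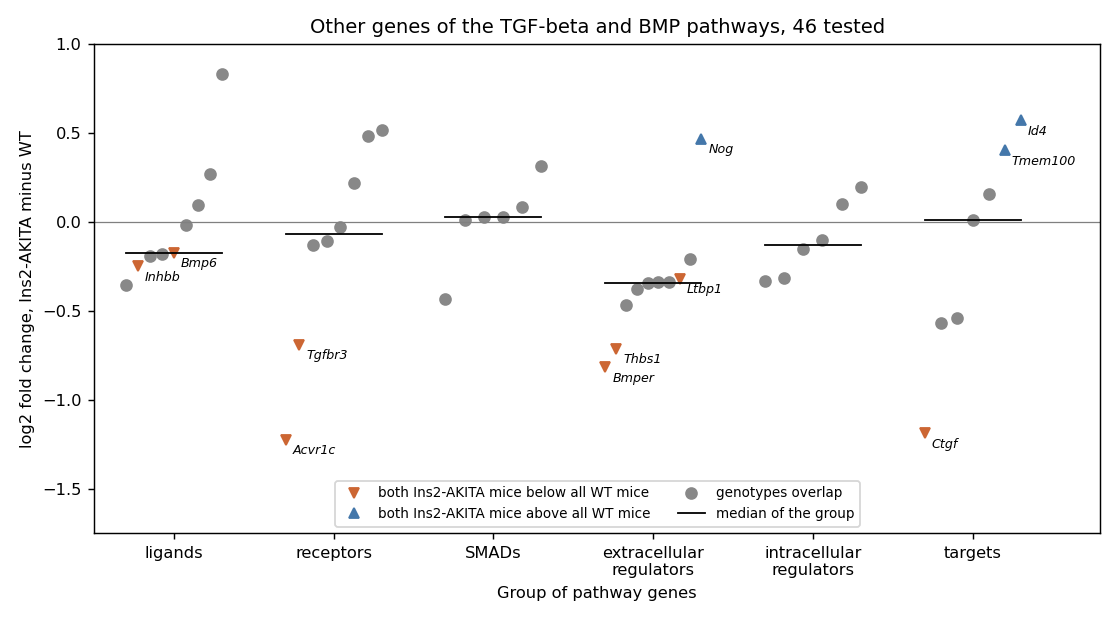
Log2 difference between Ins2-AKITA and WT mice for the 46 tested genes of the wider pathway, in 6 groups, with a black line at each group median. Downward triangles mark the 8 genes with both mutant mice below all WT mice and upward triangles the 3 with both above, and the 2 lowest points are Acvr1c at -1.23 and Ctgf at -1.19.

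Target genes went in different directions. Id4, a relative of Id1 and Id3 that astrocytes also express, had 47.8, 45.9 and 66.6 FPKM in the WT animals against 72.3 and 85.8 in the mutants, a difference of 0.57 (standard error 0.23, limma p = 0.045 before and 0.90 after adjustment, exact permutation p = 0.2). The astrocyte markers had a median difference of 0.57, with none past the adjusted threshold, and their part in the Id4 value was not tested. Id2 had 80.4, 66.7 and 51.1 FPKM in the WT animals against 50.9 and 84.3 in the mutants, so that the mutant mice spanned the WT range. Tmem100, a target of ALK1 signaling in endothelium, had 13.9, 10.8 and 14.6 FPKM in the WT animals against 15.5 and 19.7 in the mutants, above WT in both and thus opposite in sign to Eng and Id1. Ctgf, a matrix protein gene induced by TGF-beta, had 37.6, 9.41 and 7.57 FPKM in the WT animals against 4.91 and 6.45 in the mutants, a difference of -1.19 (standard error 0.65), and WT replicate 1 stood far above the other mice.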

How the data were processed

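Microvessels from the brains of 3 WT animals and 2 Ins2-AKITA animals were sequenced as RNA on an Illumina HiSeq after depletion of ribosomal RNA and stranded library preparation. Per the submitters' notes, reads were aligned with TopHat2 2.0.4 to NCBIM37, duplicates were removed with Picard 1.92 and tests were run with Cufflinks 2.2.1. The authors deposited FPKM values, 1 per Ensembl gene and mouse. The program behind the single-mouse values and the Ensembl release are not given in the sources used here. Removal of duplicates can lower abundant short genes.

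Of 37982 identifiers, 37197 matched GENCODE vM1 (NCBIM37) and rows with a shared symbol were summed. Nrros was found under its older name. Genes with a mean FPKM of at least 1 (16286) were fitted with limma 3.58.1 in R 4.3.3 on log2(FPKM + 1), genotype as the only factor, with a trended prior, two-sided, Benjamini-Hochberg adjustment at 0.05. Cufflinks needs the reads and was not rerun. This scale understates the change of low genes. Exact permutation tests covered all 10 splits of 5 mice. Depth was estimated from FPKM steps of single-transcript genes. It was 2836919 fragments in WT replicate 3 and 1134056 to 1332227 in the other libraries, so WT replicate 3 gave every member its highest fragment number. The depth chosen was the one that put most genes with up to 5 estimated fragments within 0.05 of a whole number. That share, 98.02% to 98.25%, is thus no separate check of the depth. The fit was tested on simulated data only with changes larger than that of any member, which says nothing about how well smaller ones are detected. Replicate numbers are shared between genotypes without a stated pairing. Replicates are separate mice, so p-values rest on the spread between mice. In limma the variance of each gene is also drawn towards that of the other genes. The members, the pathway list and the marker lists were chosen with earlier results of these data known. Genes named were all members, the most abundant pathway gene per group, pathway genes without overlap between genotypes, and the 3 profiles nearest to Eng; some markers are named as well, chosen after their values were seen. Alternatives were another pseudocount (0.1), no filter, a filter at 5, TPM, median-ratio and endothelial scaling, a replicate block, a constant prior, the highest row per symbol and each mouse left out.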

Additional observations from a re-analysis of the deposited data

How the results depend on the processing

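The number of members past the adjusted threshold was 0 in limma under all 14 alternatives, and the same held for those of the 53 pathway genes that each alternative tested. Eng was lower in Ins2-AKITA mice under 13 of the 14, with an unadjusted p under 0.05 in 10. The exceptions were TPM (0.81), scaling to endothelial markers, the replicate block (-0.77, standard error 0.26) and leaving out Ins2-AKITA replicate 2 (-0.62). Its adjusted p ranged from 0.43 to 1. With the replicate block the member median was -0.19 and no member changed sign. That block gave Eng the same difference as leaving out WT replicate 3. Without a filter, with the filter at 5, a constant prior or the highest row per symbol, the Eng difference could not move from -0.73. The 13 alternatives with a lower Eng are thus not separate results. The deviations of same-numbered mice from their group means correlated by 0.0512 and -0.0343 across genes. With 2 mutants, whose deviations are opposite for every gene, these values cannot exclude pairs. The numbers were not taken as pairs because no pairing is stated.

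TPM also turned Acvrl1 (1.38), Tgfbr2 (0.92), Tgfb1 (0.75), Id1 (1.07), Id3 (1.29), Smad7 (1.22) and the median of the members (1.08) positive, with the median of all genes at 1.07. Relative to that median Tgfb1 (-0.32), Eng (-0.26) and Tgfbr2 (-0.15) were lowest, while Bmpr2 (0.57), Acvrl1 (0.31), Id3 (0.22) and Smad7 (0.15) were highest. Scaling to endothelial markers turned Acvrl1 (0.32), Tgfbr2 (0.081), Tgfb1 (0.14), Id3 (0.31), Smad7 (0.31) and the median (0.31). Leaving out each mouse in turn gave -0.25 to 0.13 for Tgfbr1, -0.11 to 0.26 for Bmpr2, -0.53 to 0.032 for Tgfb1, -0.93 to 0.0013 for Id1 and -0.22 to -0.080 for the median; where an Ins2-AKITA mouse was left out, the remaining one was assumed to vary like the WT mice. TPM and endothelial scaling each multiply all genes of a library by 1 factor, so their sign changes are not separate results for each gene. Why leaving out single mice moved the values was not tested.

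Over all genes, the number higher (0) became 34 without a filter, 58 with TPM, 1 with endothelial scaling, 1 with a constant prior and 0 to 10 with a mouse left out. The number lower (4) became 1 without a filter, 2 with the filter at 5, 30 with TPM, 7 with endothelial scaling, 2 with a constant prior and 1 to 6 with a mouse left out. Depth limits Tgfb1 and Smad6 most, with as few as 12 and 16 fragments in a library.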
